A study of Mus musculus with 8 samples.

Results

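The genes described here are 9 genes of megakaryocytes and platelets: the granule chemokines Pf4 and Ppbp, the integrin chains Itga2b and Itgb3, the glycoproteins Gp1bb, Gp9 and Gp5, the adhesive protein gene Vwf and the granule receptor Treml1. They were taken by symbol from the platform's annotation, which gives them 11 of the 25697 probes (2 each for Ppbp and Itga2b), and 9 of 16593 named genes. Total RNA came from spleens of 10-week-old B6D2F1J mice, the F1 hybrid of C57BL/6 and DBA/2, taken on day 14 of engraftment in a parent-into-F1 system used to study lupus. The groups were 4 spleens labelled DBA to F1 and 4 labelled B10.D2 to F1 (donor strain first), with 1 Illumina MouseRef-8 v2.0 array each, and the comparison asks how they differ with the strain of the donor. All recipients shared strain and age, and no recipient without donor cells was analysed here. B10.D2 is a C57BL/10 strain that carries the histocompatibility region of DBA/2. The labels used here name neither the kind nor the number of donor cells. They also leave it unsaid whether each replicate was a mouse of its own, so the p-values cover the spread between these arrays only, which could be technical.

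Megakaryocytes are large, polyploid cells of bone marrow that shed platelets, and in adult mice the spleen also holds megakaryocytes and stores circulating platelets. Platelets keep RNA from the megakaryocyte, so spleen RNA of these genes can come from both. At a vessel wound, the platelet glycoprotein Ib-IX-V complex catches von Willebrand factor under flow, and integrin alphaIIb-beta3 then binds fibrinogen and joins platelets to each other. Alpha granules release stored chemokines and adhesive proteins. Transcription factors of the GATA and ETS families drive the genes of this lineage.

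The 8 arrays detected 12601 to 13320 probes each (detection p under 0.05). Of 10 markers of spleen lymphocytes and red pulp, 9 were listed and all 9 were detected on all 8 arrays. Median raw intensities were 113.2 to 124.8 with the DBA donor and 126.4 to 142.1 with the B10.D2 donor, and levels below are log2 intensities after background correction and quantile normalization. Of the 9 genes, 8 were detected on all 8 arrays, while Itgb3 was detected in 3 of 4 DBA donor spleens and in 1 of 4 B10.D2 donor spleens. All 11 probes passed the filter for testing (detection on at least 4 of the 8 arrays). Of further markers of the lineage, Gp1ba and Gp6 had no listed probe.

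The start regions of 7 of the 9 genes were in the RefSeq promoter table of build GRCm38.p6, each as 300 bases. The windows of 6 lay over the start of the gene in the gene table of the same build, while that of Gp9 lay inside the gene and is not shown. All 7 were searched on both strands for the cores GATAA (GATA factors) and GGAAG (ETS factors), which can overlap each other by at most 1 base. GGAAG was in 7 of 7 windows, against 71.4% of the 32851 windows of all genes. GATAA was in 3 of 7 (2 of the 6 at the gene's start, those of Pf4 and Gp5, and that of Gp9), against 25.4% of all windows, and both were in these 3, against 17.2%. The windows of Pf4 and Gp5, which hold both cores, and that of Itga2b, which holds 4 copies of GGAAG, are shown as examples. They are written along the gene's strand, with capitals marking the cores or their complements (TTATC and CTTCC). A match says only that these letters are present.
Pf4, chr5:90772185-90772484, plus strand: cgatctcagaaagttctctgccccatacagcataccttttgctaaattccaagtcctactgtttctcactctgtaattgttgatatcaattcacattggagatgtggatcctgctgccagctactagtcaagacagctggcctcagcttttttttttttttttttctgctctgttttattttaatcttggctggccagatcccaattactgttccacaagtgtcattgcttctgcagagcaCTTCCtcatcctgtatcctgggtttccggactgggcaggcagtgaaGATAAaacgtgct
Gp5, chr16:30310732-30311031, minus strand: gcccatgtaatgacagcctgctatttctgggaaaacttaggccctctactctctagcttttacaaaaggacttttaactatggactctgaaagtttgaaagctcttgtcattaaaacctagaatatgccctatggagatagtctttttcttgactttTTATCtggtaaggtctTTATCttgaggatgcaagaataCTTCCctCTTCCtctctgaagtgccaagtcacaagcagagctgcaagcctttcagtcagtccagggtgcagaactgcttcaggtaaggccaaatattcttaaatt
Itga2b, chr11:102469834-102470133, minus strand: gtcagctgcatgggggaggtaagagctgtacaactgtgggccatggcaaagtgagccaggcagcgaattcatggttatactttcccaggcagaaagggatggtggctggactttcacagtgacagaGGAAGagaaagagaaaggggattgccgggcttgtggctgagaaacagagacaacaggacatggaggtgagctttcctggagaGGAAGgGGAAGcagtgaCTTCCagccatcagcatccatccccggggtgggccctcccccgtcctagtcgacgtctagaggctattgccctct

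No gene of the set passed the test between donors. In the limma fit over all 12950 tested probes, 0 of the 11 probes had a Benjamini-Hochberg adjusted p under 0.05, against 0.0695% of all tested probes, a background at which 0 of 11 is the usual count. At an unadjusted p under 0.05 there were also 0 of 11, against 14.5% of all probes. Arrays of both donors overlapped for every probe, so 0 of 11 were apart, against 8.37% of all probes. By gene, taking the probe with the highest mean, 5 of 9 had higher and 4 lower means in DBA donor spleens, where 46% of all tested genes were higher, and the log2 differences ran from -0.14 (Itga2b) to 0.27 (Pf4). Their median was 0.093, beside -0.017 over the 9028 tested genes. Itgb3, among the 5 higher genes, passed the filter through 3 DBA donor arrays and 1 B10.D2 donor array. Over the 8 genes detected on all arrays, which leave out Itgb3, 4 were higher and 4 lower, with a median of 0.044. Scaling by array median in place of quantile normalization moved the median of all genes to -0.18 and that of the 9 genes to -0.13, with 3 higher and 6 lower. Bulk spleen RNA cannot tell fewer cells or platelets from less RNA in each, here or in any value below. The 95% confidence intervals of the 9 genes lay between -0.59 and 0.64, and between -0.73 and 0.74 when any 1 array was left out. When scaled by array median they lay between -0.81 and 0.49. A log2 difference of 1 in either direction lies outside all of these intervals. Itgb3 was near the background, where differences shrink, so its interval does not bound the difference in its RNA.

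**Figure D1:**
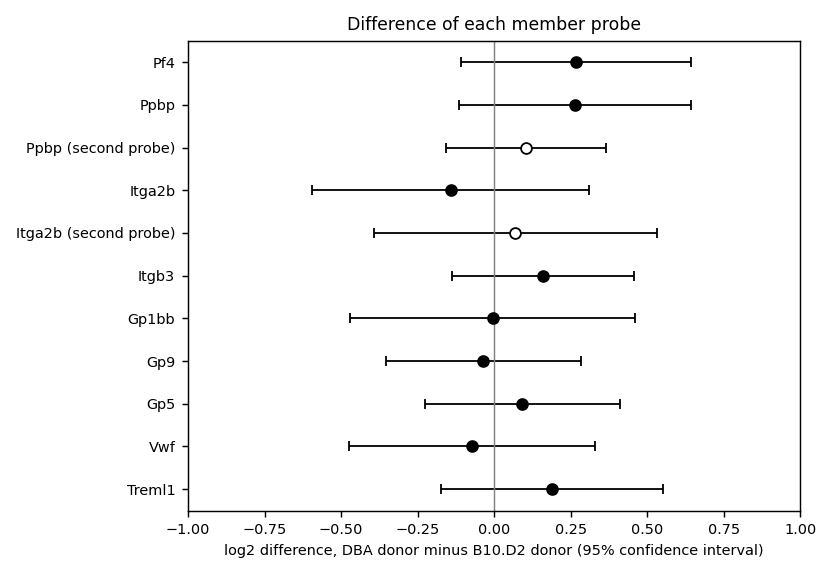
Log2 difference (x axis, DBA donor minus B10.D2 donor) of each of the 11 probes (y axis), with its 95% confidence interval from limma. Filled points stand for the probe that represents a gene and open points for the second probes of Ppbp and Itga2b. Every interval crosses 0, and the points lie between -0.14 and 0.27.

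Among the chemokines, Pf4 (platelet factor 4, also called CXCL4), which binds heparin and is a classical mark of the lineage, had the largest positive difference of the 9. Its levels were 9.57, 9.20, 10.08 and 9.75 in DBA donor spleens and 9.55, 9.48, 9.35 and 9.17 in B10.D2 donor spleens, in replicate order. Replicates 1, 3 and 4 of the DBA donor lay above every B10.D2 donor array, replicate 1 by little, while replicate 2 lay within the other group's range. The means were 9.65 ± 0.37 and 9.39 ± 0.17 (SD, n = 4), a log2 difference of 0.27 (SE 0.17, 1.20-fold, 95% confidence interval 0.928-fold to 1.56-fold, limma adjusted p = 0.502). Without DBA donor replicate 2 the difference was 0.42 (limma adjusted p = 0.357), and without DBA donor replicate 3 it was 0.12. In raw intensity the order of the means was the opposite, 789 ± 130 against 867 ± 108 (SD, n = 4), on the dimmer DBA donor arrays. This was not particular to Pf4, as every other probe of the set also had a lower raw mean with the DBA donor. The positive differences of the set thus appear only after normalization.

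Ppbp encodes pro-platelet basic protein (CXCL7), whose processed forms attract neutrophils, and it lies next to Pf4, with no other gene of the table between them. Its levels were 10.90, 10.85, 11.33 and 11.18 in DBA donor spleens and 10.57, 11.27, 10.82 and 10.54 in B10.D2 donor spleens. The groups overlapped through B10.D2 donor replicate 2, which lay next to the highest DBA donor array. The difference was 0.26 (SE 0.17, 1.20-fold, limma adjusted p = 0.515), and 0.42 without B10.D2 donor replicate 2 (limma adjusted p = 0.453). The second Ppbp probe differed by 0.10 (SE 0.12, limma adjusted p = 0.733), with 10.41 to 10.84 in DBA donor and 10.26 to 10.63 in B10.D2 donor spleens. All 3 probes of the chemokine pair had positive differences, with 0 of 3 past the test, and the second Ppbp probe was at -0.081 when scaled by array median.

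Of the glycoprotein Ib-IX-V complex, Gp1bb encodes the small disulfide-linked chain, Gp9 the chain needed for the complex to reach the surface, and Gp5 the thrombin-cleaved chain. Gp1bb stood at 7.77, 7.32, 8.26 and 7.94 in DBA donor spleens and at 7.75, 8.29, 7.80 and 7.48 in B10.D2 donor spleens. Its means of 7.82 ± 0.39 and 7.83 ± 0.34 (SD, n = 4) were nearly equal, with a log2 difference of -0.0049 (95% confidence interval -0.47 to 0.46, limma adjusted p = 0.994). Each group spanned over 0.8 on the log2 scale from its lowest to its highest array, a measure unlike the difference between means. In the gene table Gp1bb overlaps Septin5, a gene for a septin, and the position of the Gp1bb probe was not used here, so a share of Septin5 RNA in its signal was not tested. The array's own Septin5 probe was detected on 0 of 8 arrays.

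Gp9 stood at 8.52, 8.61, 8.96 and 8.83 in DBA donor spleens and at 8.51, 9.10, 8.80 and 8.64 in B10.D2 donor spleens. The difference was -0.035 (SE 0.14, limma adjusted p = 0.939). Gp5 stood at 8.54, 8.62, 9.04 and 8.997 in DBA donor spleens and at 8.71, 8.99, 8.58 and 8.56 in B10.D2 donor spleens. Here DBA donor replicates 3 and 4 and B10.D2 donor replicate 2 lay close together at the top, and the other 5 arrays were between 8.54 and 8.71. The difference was 0.093 (SE 0.14, limma adjusted p = 0.810), and -0.13 when scaled by array median. With B10.D2 donor replicate 2 left out, the differences of Gp1bb and Gp9 turned to 0.15 and 0.079, and the sign of both also turned without DBA donor replicate 1 or 2.

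Vwf, the ligand that the complex binds, is made by megakaryocytes and also by endothelial cells. Its levels were 9.001, 8.63, 9.31 and 9.18 in DBA donor spleens and 9.10, 9.55, 8.95 and 8.80 in B10.D2 donor spleens. The difference was -0.072 (SE 0.18, 95% confidence interval -0.48 to 0.33, limma adjusted p = 0.893), and it was 0.060 without DBA donor replicate 2 and 0.078 without B10.D2 donor replicate 2. Of a list of 17 endothelial genes, all 15 tested had negative differences, with 0 called by limma, 3 at an unadjusted p under 0.05 and a median of -0.14. Of all tested genes, 46% had positive differences, 14.3% were at an unadjusted p under 0.05 and limma called 0.0775%. The list means were 7.85 to 8.07 in DBA donor and 8.07 to 8.22 in B10.D2 donor spleens. The endothelial cadherin Cdh5 differed by -0.51 (limma adjusted p = 0.136), the guidance receptor Robo4 by -0.36 and the secreted factor Egfl7 by -0.30, and all 3 were called lower when scaled by array median, where limma called 4.83% of all probes and the median of all genes was -0.18. Their part in the value of Vwf was not tested.

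Itga2b and Itgb3 encode the alphaIIb (CD41) and beta3 (CD61) chains of the fibrinogen receptor. Itga2b stood at 8.08, 7.92, 8.45 and 8.65 in DBA donor spleens and at 8.31, 8.88, 8.50 and 7.99 in B10.D2 donor spleens. The groups overlapped over most of their range, with a difference of -0.14 (SE 0.20, limma adjusted p = 0.794). Its second probe had the other sign, at 0.070 (SE 0.21, limma adjusted p = 0.915), so the direction of Itga2b was not settled. Without B10.D2 donor replicate 2 the first probe was at 0.011 and without B10.D2 donor replicate 4 at -0.28.

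Itgb3 was near the background, at 4.63, 5.001, 4.90 and 5.17 in DBA donor spleens and 4.66, 4.67, 5.05 and 4.68 in B10.D2 donor spleens. The 4 arrays on which it was detected, B10.D2 donor replicate 3 and replicates 2 to 4 with the DBA donor, were its 4 highest. The difference was 0.16 (SE 0.13, limma adjusted p = 0.630). Values this near the background shrink differences, so the probe says little about beta3, which macrophages and other cells also express.

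Treml1 encodes a receptor of alpha granules (TLT-1) that reaches the platelet surface on activation, and its expression is largely restricted to this lineage. Its levels were 9.65, 9.50, 10.18 and 9.97 in DBA donor spleens and 9.63, 9.96, 9.47 and 9.48 in B10.D2 donor spleens. DBA donor replicate 3 was the highest array and B10.D2 donor replicate 2 was close to DBA donor replicate 4. The difference was 0.19 (SE 0.16, 1.14-fold, 95% confidence interval 0.887-fold to 1.46-fold, limma adjusted p = 0.641), and -0.011 when scaled by array median.

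**Figure D2:**
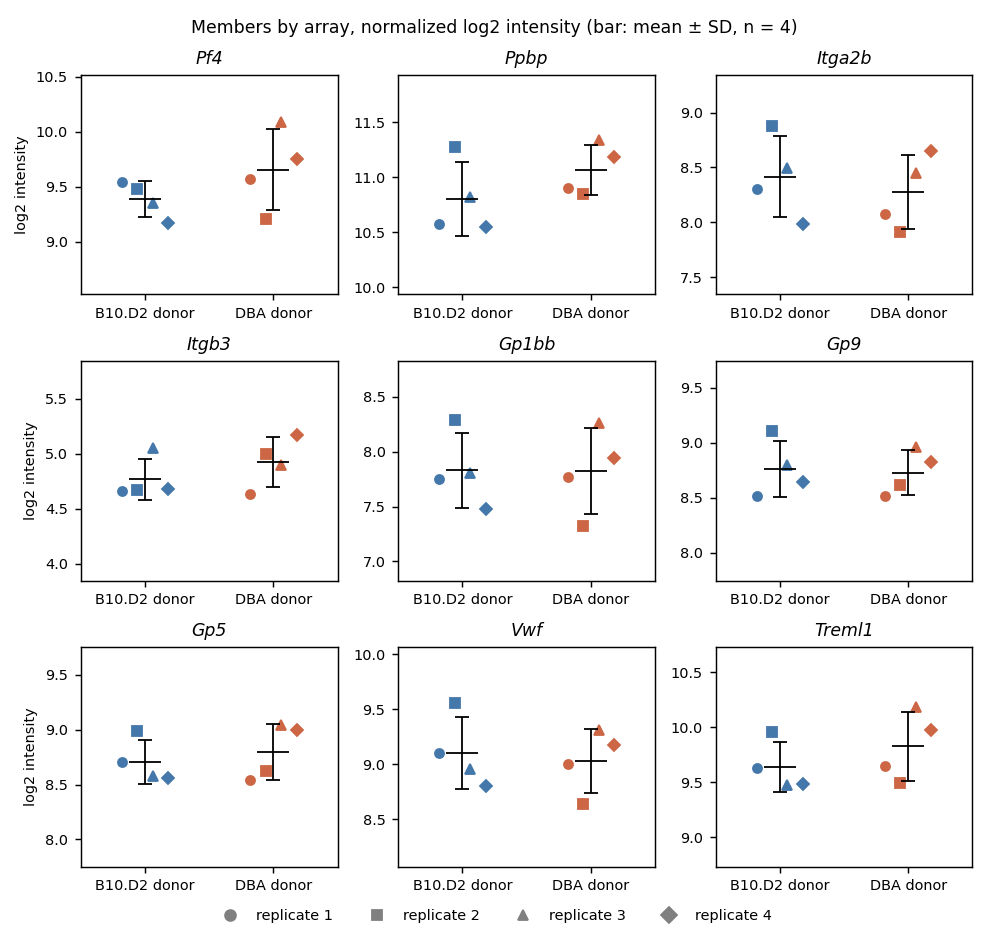
Normalized log2 intensity (y axis, a window of 2 log2 units in each panel) of the 9 genes in the 4 B10.D2 donor and 4 DBA donor spleens (x axis), with a marker shape for each replicate number and the mean ± SD as bars. The groups overlap in all 9 panels, and DBA donor replicate 3 and B10.D2 donor replicate 2 are at or near the top of their group in most of them.

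The 8 genes detected on all arrays varied together from array to array within each donor group. DBA donor replicate 3 was the highest of its group in 7 of 8 genes and B10.D2 donor replicate 2 in 7 of 8, where the same arrays were highest for 21.7% and 23.6% of all tested genes. DBA donor replicate 2 was the lowest of its group in 6 of 8 and B10.D2 donor replicate 4 in 6 of 8, beside 35.2% and 36.9% of all genes. All 8 genes lay above their own mean over the arrays on DBA donor replicates 3 and 4, and 0 of 8 did so on either DBA donor replicate 2 or B10.D2 donor replicate 4. Their median SD within groups was 0.29 (0.23 to 0.37), beside 0.16 over all tested genes. The per-array mean of the 8 ran from 8.83 to 9.45 in DBA donor spleens and from 8.83 to 9.44 in B10.D2 donor spleens, so both groups covered nearly the same range.

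**Figure D3:**
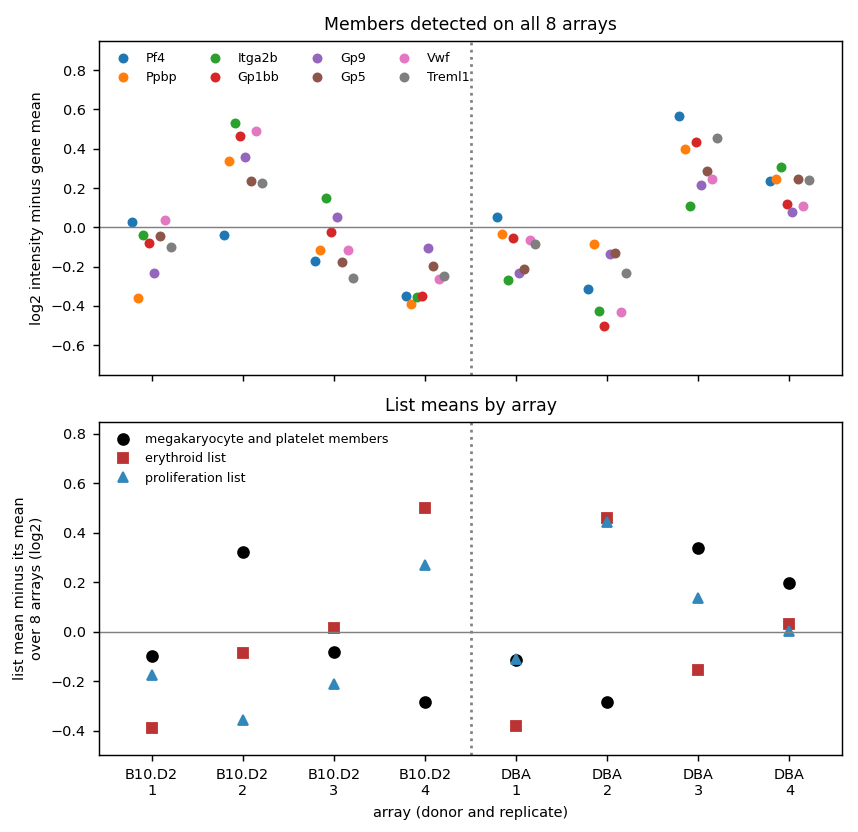
Upper panel, log2 intensity minus the gene's mean over 8 arrays (y axis) for the 8 genes detected on all arrays, by array (x axis). Lower panel, the mean of these genes, of the erythroid list and of the proliferation list, each minus its own mean over the arrays. The 8 genes move together, up to a mean of 0.34 on DBA donor replicate 3 and down to -0.28 on DBA donor replicate 2 and B10.D2 donor replicate 4, the arrays where the erythroid and proliferation lists are highest.

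As a measure of likeness, the level of each gene over the 8 arrays was set against the mean of the other 7, which share the same arrays and normalization. Pearson's r ran from 0.72 for Pf4 to 0.95 for Gp1bb, and was 0.15 for the dim Itgb3 against all 8. Spearman's rho, computed on ranks, was lower for each of the 8 genes, from 0.57 for Gp9 to 0.93 for Gp1bb. Without the pair of arrays of highest erythroid mean, DBA donor replicate 2 and B10.D2 donor replicate 4, r of Pf4 was 0.49 over 6 arrays. Among the genes outside the set, those most like the mean of the 8 genes were F2rl2 (r = 0.97), Prtn3 (0.97), Mpig6b (0.96), Mpo (0.96) and Elane (0.95). Riken, LOC, Gm and Mir symbols were left out of this ranking. F2rl2 encodes a protease-activated receptor that helps thrombin act on mouse platelets, and Mpig6b an inhibitory receptor of megakaryocytes and platelets. Prtn3, Mpo and Elane encode enzymes of the primary granules of neutrophil precursors. With the same pair left out, r of these 5 was 0.95 to 0.97 over 6 arrays. The 5 were picked by r over all 8 arrays, so a high r over 6 of these follows largely from that choice.

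The mean of the erythroid list took another course. It was highest on DBA donor replicate 2 (10.69) and B10.D2 donor replicate 4 (10.73), and 9.84 to 10.27 on the other arrays. The platelet gene mean was lowest on this pair of arrays (8.83 on both). Alas2, Sptb, Slc4a1 and Hbb-b2 did not have this pair as their highest arrays. The other tested erythroid genes did, apart from Hba-a1. Of 14 tested erythroid genes of 21, 4 had positive and 9 negative differences between donors. Hba-a1, an alpha globin gene, stood at 14.64 on all 8 arrays. Quantile normalization gives a probe of equal rank on every array the same value, so this equality says nothing about the donors. Limma called 0 of the 14. At an unadjusted p under 0.05 there was 1 (the beta globin Hbb-b2, 0.37), beside 14.3% of all tested genes. The anion exchanger Slc4a1 differed by -0.24 and the carbonic anhydrase Car2 by 0.30. The proliferation list was highest on the same arrays (9.93 and 9.76, beside 9.13 to 9.63 elsewhere). The part of these cells in the levels of the 9 genes was not tested. Without both arrays the median difference of the 9 genes was 0.10, beside 0.093 with them, and 0 of 11 probes were called.

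Of 13 tested transcription factors of a wider list described below, 5 had these arrays as their highest pair, as did 11.5% of all tested genes, and 8 did not. Gata1, the GATA factor of both lineages, stood at 7.09 on DBA donor replicate 2 and 7.42 on B10.D2 donor replicate 4, and at 5.78 to 6.54 on the other arrays. Gfi1b, a repressor needed for both, stood at 9.49 and 9.96 on these arrays and at 8.15 to 8.94 elsewhere. Nfe2, which drives platelet release, was at 11.01 and 11.14, and at 9.90 to 10.64 elsewhere. Tal1 and Zfpm1 were the others of the 5, named after their values were seen. Gata2, also named after its values were seen, was highest on B10.D2 donor replicate 2 (7.64) and at 7.29 on DBA donor replicate 2. Fli1, an ETS factor of megakaryocytes, was lowest on B10.D2 donor replicate 4 (6.80) and next on DBA donor replicate 2 (7.14). Between donors Gata1 differed by 0.052, Gfi1b by 0.11, Nfe2 by -0.13 and Fli1 by 0.082, with limma adjusted p of 0.859 to 0.965. The other Gata1 probe differed by 0.25 (limma adjusted p = 0.655).

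Of a wider list of 75 genes of megakaryocytes and platelets, 64 had a listed probe and 59 were tested. In limma 0 of 59 were called, against 0.0775% of all tested genes, with 25 positive and 34 negative differences and a median of -0.044. At an unadjusted p under 0.05 there were 2 higher and 7 lower, and 14.3% of all genes reached that level. The higher pair were Gnaz, the alpha subunit of the platelet G protein Gz (0.54, SE 0.21, limma adjusted p = 0.279), and Tubb1, the tubulin of the platelet marginal band (0.31, SE 0.13, limma adjusted p = 0.327). Gnaz stood at 8.29, 7.92, 8.66 and 8.54 in DBA donor spleens and at 8.14, 8.12, 7.67 and 7.34 in B10.D2 donor spleens, and the groups overlapped through DBA donor replicate 2.

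The lower genes of smallest p were Pear1, a receptor of platelet contact (-0.33), Tbxa2r, the thromboxane receptor (-0.30), the myosin kinase gene Mylk (-0.33), the homeobox gene Meis1 (-0.24), and the growth factor genes Tgfb1 (-0.28) and Pdgfb (-0.24), with limma adjusted p of 0.224 to 0.285. The other probes of Pear1, Tbxa2r and Mylk were at -0.21, -0.23 and -0.46 (limma adjusted p = 0.0887 for Mylk). All 6 are also expressed by cells other than megakaryocytes. By role, 1 of 8 receptors and adhesion genes had a positive difference, as did 7 of 15 agonist receptors and signalling genes, 8 of 14 granule and secretion genes, 1 of 2 thromboxane synthesis genes, 1 of 7 cytoskeletal genes and 7 of 13 transcription factors. When scaled by array median, 8 of 59 genes had positive and 51 negative differences, with a median of -0.20 beside -0.18 for all genes. Under this scaling limma called 5.44% of all tested genes, against 0.0775% before, and 5 of 59 genes of the wider list, all lower (Tbxa2r, Pdgfb, Tgfb1, Mylk and Meis1), at -0.46 to -0.54, and 0 of the 11 probes of the set.

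**Figure D4:**
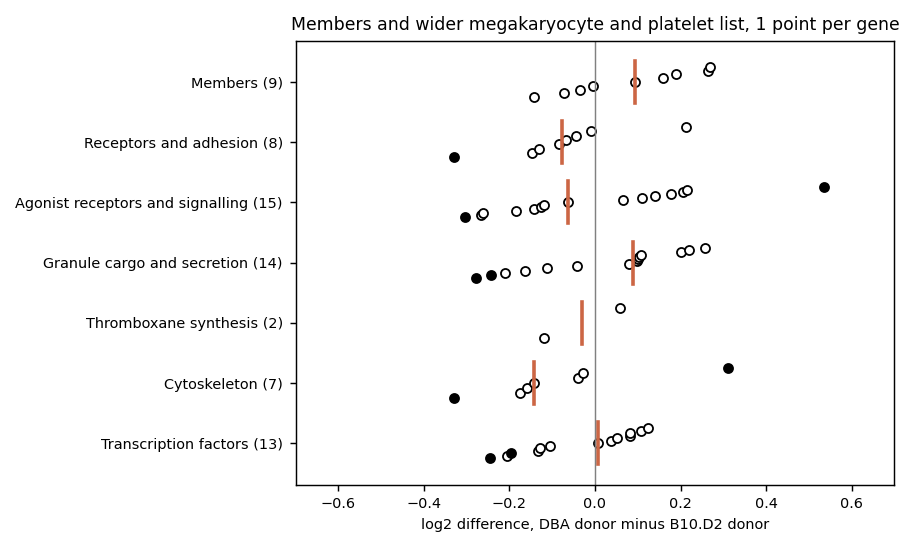
Log2 difference (x axis, DBA donor minus B10.D2 donor) of the 9 genes and of the 59 tested genes of the wider list by role (y axis, number of genes in brackets), 1 point per gene. Filled points have an unadjusted p under 0.05 in limma and bars mark the median of each group, which is 0.093 for the 9 genes and -0.14 to 0.089 for the roles.

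Of mast cells and basophils, which also use Gata2, all 7 tested genes of a list of 9 had positive differences, with a median of 0.50 (6 of 7 and 0.31 when scaled by array median). Of all tested genes, 46% had positive differences and limma called 0.0775%. Mcpt4, a mast cell chymase, was called (1.28, SE 0.17, limma adjusted p = 0.0341), but not with B10.D2 donor replicate 2 or 3, or any 1 DBA donor array, left out. Gata2 itself differed by 0.0062. The list means were 6.65 to 6.95 in DBA donor and 6.07 to 6.39 in B10.D2 donor spleens and did not overlap, where those of the platelet genes covered nearly the same range in both. Whether the lists differ in their difference between donors was not tested.

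Of 9 tested macrophage genes of 12, 3 had positive and 6 negative differences, with 0 called by limma. At an unadjusted p under 0.05 there were 2, beside 14.3% of all tested genes. The sialic acid receptor Siglec1 differed by -0.52 and the scavenger receptor Marco by -0.40, both among the 5.44% of genes called when scaled by array median, while the macrophage marker Adgre1 differed by 0.13. Of 8 tested proliferation genes of 14, all 8 had positive differences (4 of 8 when scaled by array median), beside 46% of all tested genes. Limma called 0 of these 8, and 2 were at an unadjusted p under 0.05. The mitotic kinase genes Aurka and Plk1 differed by 0.45 and 0.35, and Cdc20, an activator of the anaphase complex, by 0.27.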

How the data were processed

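Per the file headers, the deposited non-normalized table holds the mean bead intensity of each probe and array on a linear scale and a detection p-value against that array's negative controls. A second deposited table of intensity values, processed by the authors in steps not given in the sources used here, was an alternative. GenomeStudio is the tool named in the submitters' processing notes. Intensities were corrected by normexp from the detection p-values (offset 16), quantile-normalized and put on a log2 scale (neqc, limma 3.58.1, R 4.3.3). Of 25697 probes 23978 had a symbol, and symbols were checked by Entrez number against GRCm38.p6 (23962 matched, 0 changed). Probes with detection p under 0.05 on at least 4 of 8 arrays were fitted with lmFit and eBayes, DBA donor minus B10.D2 donor, adjusted by Benjamini-Hochberg. The probe with the highest mean represents a gene. The members and lists were chosen with earlier results of these data known. Named genes were all members, of the wider list the 8 of smallest p and in any case Gata1, Nfe2, Fli1, Gfi1b, Gp1ba, Tubb1 and Gp6 (1 other is not reported here), of each list of other cells those called or else the 3 of smallest p, and the 5 genes most like the members' mean. The fit was tested on simulated data. Precision is limited by the number of arrays. The files name no genome build. Figures used matplotlib 3.10.9.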

Additional observations from a re-analysis of the deposited data

Results flagged for a closer look

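In 1 of 22 groups of 4 arrays (11 probes in 2 donor groups), 1 array stood far from the others, where chance gives about 1.1. Itgb3 was highest on B10.D2 donor replicate 3, at 5.05 beside 4.66 to 4.68 on the other arrays of its group, a gap of 0.963 of the group's whole range. It was the only array of that group on which the probe was detected. Raw intensities of the group were 119, 132.2, 133.1 and 126.8 in replicate order, near the background. The gap thus appears only after background correction and normalization.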

How the results depend on the processing

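With 4 arrays a group and intervals as wide as -0.47 to 0.46 (Gp1bb), small differences could not be detected. The count of 0 probes called held in all 19 alternatives run, though requiring detection on all 8 arrays left Itgb3 untested. The lowest limma adjusted p was 0.268 (Itga2b, scaling by array median). At an unadjusted p under 0.05 there was at most 1 probe of the set. The median difference of the 9 genes ran from -0.13 (scaling by array median, where the median of all genes was -0.18) to 0.18. With 1 array left out it was 0.013 to 0.18, lowest without DBA donor replicate 3 and highest without DBA donor replicate 1. It was 0.044 over the 8 genes detected on all arrays. Pf4 and the first Ppbp probe kept their sign in every alternative that tested them. Itgb3 did so too, near the background. Itgb3 passed the filter through 3 DBA donor arrays and 1 B10.D2 donor array, so its sign says little. Scaling by array median turned Gp5 to -0.13, Treml1 to -0.011, the second Ppbp probe to -0.081 and the second Itga2b probe to -0.12. It raised the calls to 625 of all probes, 5 genes of the wider list and 7 of the lists of other cells. With 1 array left out, Itga2b ran from -0.28 to 0.011, its second probe from -0.096 to 0.23, Gp1bb from -0.15 to 0.16, Gp9 from -0.12 to 0.079 and Vwf from -0.17 to 0.078; the cause was not tested. Gp1bb was at 0.045 without the pair of arrays of highest erythroid mean, an alternative chosen after seeing the data, which left 0 genes called in the lists of other cells. The 9 probes called in all became 0 with no filter on dim probes, 38 with array weights, 35 at an adjusted p under 0.1 and 0 to 11 with 1 array left out (0 without B10.D2 donor replicate 2 and DBA donor replicates 3 and 4, 2 without DBA donor replicate 1 and 2 without B10.D2 donor replicate 3, 4 without DBA donor replicate 2). The 1 gene called in the lists of other cells, Mcpt4, became 0 with no filter and 0 to 1 with 1 array left out. Same-numbered arrays deviated together with correlations of -0.35 to 0.34. So few values cannot show whether the numbers pair the samples. With the replicate block 7 probes in all and 0 of 11 were called, and the median difference was 0.093.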

Other observations

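The genes of neutrophil primary granules were named because their levels over these 8 arrays were most like the mean of the platelet genes, so their order over the arrays follows from that choice and is given as values only. Mpo, myeloperoxidase, stood at 9.70, 9.34, 10.26 and 10.07 in DBA donor spleens and at 9.91, 10.30, 9.70 and 9.57 in B10.D2 donor spleens. Elane, neutrophil elastase, stood at 8.72, 8.23, 9.24 and 8.92 and at 8.64, 9.10, 8.72 and 8.15. Prtn3, proteinase 3, stood at 8.25, 7.83, 8.91 and 8.73 and at 8.37, 8.73, 8.20 and 8.01. Between donors they differed by -0.028 (Mpo), 0.13 (Elane) and 0.11 (Prtn3), with limma adjusted p of 0.846 to 0.969.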
